A study of Mus musculus with 8 samples.

Results

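Genes of lipid synthesis and of the sebaceous gland were examined in 3 populations of keratinocytes sorted from mouse back skin and measured on Illumina bead arrays. The set holds 45 genes chosen by name for fatty acid synthesis, desaturation and elongation, for wax ester, triglyceride and sterol ester synthesis, for lipid droplets and sebum, for the transcription factors that control them, and for cholesterol and sphingolipid synthesis. A probe counted as a member where the platform annotation gave it one of these symbols, which held for 55 of 25697 probes and 40 of the 45 genes. Of these genes, 30 (42 probes) had a detection p-value under 0.05 on at least 2 of the 8 arrays and were tested together with the rest of the 9545 genes that passed this filter. The other 15 genes are accounted for below.

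All mice carried one Gli1-eGFP allele, were outcrossed to Swiss Webster and were adults with hair follicles in telogen, the resting phase. Viable single cells stained for α6 integrin, a marker of basal keratinocytes, were sorted, and 2 mice were pooled for each replicate. Gli1+ cells (GFP-positive, 2 arrays, replicates 2 and 3) were collected whatever their CD34 staining and are labelled as responding to Hedgehog (Hh). CD34+ cells (GFP-negative and CD34-positive, 3 arrays) are labelled as hair follicle bulge with the responding cells taken out. IFE cells (GFP-negative and CD34-negative, 3 arrays) are labelled as mostly epidermis between follicles together with the infundibulum, the funnel at the follicle's mouth. RNA of Gli1+ replicate 1 was too poor to be measured, per the study's design text. Replicates of a group are separate pools of mice, while same-numbered samples of different groups come from the same pool. P-values of the main fit measure the spread between pools within groups and leave this pairing out. A fit with the pool as a block was an alternative. The small number of arrays limits the precision.

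As background, keratinocytes make fatty acids from citrate through Acly, Acaca and Fasn, and desaturases and elongases then modify the chains. The same precursor feeds the cholesterol pathway, in which Hmgcs1 stands near the start and Dhcr7 at the end. SREBP transcription factors, encoded by Srebf1 and Srebf2, switch both pathways on when sterols are scarce, and Insig1 holds them back. Basal cells of the sebaceous gland divide and give rise to sebocytes, which fill with wax esters, triglycerides and other lipids and burst to release sebum, while the epidermis uses cholesterol, ceramides and very long chain fatty acids for its barrier.

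Promoter sequences of 3 cholesterol synthesis genes are shown first, since SREBP factors act on this pathway and since the CD34+ arrays of these genes all lay below the IFE arrays, with values given further on. The 3 genes were thus picked on their values, and that order held for 13.7% of all genes. Of the 10 cholesterol synthesis genes tested, 5 were higher and 5 lower in CD34+ than in IFE cells. Of these 10, 0 had a limma adjusted p under 0.05. Each sequence runs 5′ to 3′ on the gene's strand from 250 bases before to 50 bases after the start of the gene, from RefSeq on GRCm38.p6, in lower case. Capitals mark the SREBP motif TCACNCCAC or the CCAAT box, which is also known to bind factors at SREBP targets, read on either strand, so that ATTGG is a CCAAT box on the opposite strand. The windows are chr13:119690101-119690400 on the plus strand for Hmgcs1, chr5:4104648-4104947 on the minus strand for Cyp51 and chr1:169969156-169969455 on the minus strand for Hsd17b7.
Hmgcs1: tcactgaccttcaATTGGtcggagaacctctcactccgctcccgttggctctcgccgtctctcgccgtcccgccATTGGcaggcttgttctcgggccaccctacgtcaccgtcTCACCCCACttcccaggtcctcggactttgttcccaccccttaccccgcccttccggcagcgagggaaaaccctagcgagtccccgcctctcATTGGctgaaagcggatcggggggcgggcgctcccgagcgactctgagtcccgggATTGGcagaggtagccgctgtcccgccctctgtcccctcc
Cyp51: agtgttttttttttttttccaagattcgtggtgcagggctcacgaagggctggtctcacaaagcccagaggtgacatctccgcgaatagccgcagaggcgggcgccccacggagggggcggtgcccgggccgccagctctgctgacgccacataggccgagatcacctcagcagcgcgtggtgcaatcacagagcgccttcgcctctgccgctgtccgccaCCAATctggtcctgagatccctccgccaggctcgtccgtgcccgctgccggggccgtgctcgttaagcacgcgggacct
Hsd17b7: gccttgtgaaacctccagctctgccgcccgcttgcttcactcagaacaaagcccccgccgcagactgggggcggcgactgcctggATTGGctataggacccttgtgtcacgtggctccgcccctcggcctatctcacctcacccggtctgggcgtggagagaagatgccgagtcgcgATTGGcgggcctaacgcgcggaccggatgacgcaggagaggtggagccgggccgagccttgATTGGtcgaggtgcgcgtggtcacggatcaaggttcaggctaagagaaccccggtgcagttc
Hmgcs1 held 1 SREBP motif, starting at base 114 of the window, and 4 CCAAT boxes, with no overlap between them. Cyp51 held 1 CCAAT box and Hsd17b7 held 3, and neither held the SREBP motif in this window. Of the 45 genes, 34 had a window in the table. The SREBP motif was in 1 of these 34 genes and in 1.24% of all 32851 promoter windows. A CCAAT box was in 25 of the 34 genes, or 28 of their 43 windows, and in 37.4% of all windows. These matches describe letters in the windows, not bound sites.

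Between 9925 and 12601 probes were detected on an array, and 24 to 29 of the 30 tested lipid genes. The 2 Gli1+ arrays stood apart from each other, with a correlation over genes of 0.82, while CD34+ arrays correlated at 0.933 to 0.945 and IFE arrays at 0.943 to 0.950. Each Gli1+ array correlated more closely with every array of the other groups, at 0.873 to 0.887 for replicate 2 and 0.821 to 0.839 for replicate 3, so that a Gli1+ mean joins 2 unlike arrays. Against IFE cells, the sort was visible in Gli1 and Cd34. Gli1, a target gene of Hedgehog signalling, was higher than in IFE cells by 3.46 ± 0.42 on the log2 scale in Gli1+ cells (SE, limma adjusted p = 0.00751) and by 2.47 ± 0.37 in CD34+ cells (limma adjusted p = 0.00477). The Gli1 difference between Gli1+ and CD34+ cells, 0.98 ± 0.42, missed the threshold (limma adjusted p = 0.258), and their arrays overlapped. Cd34 was higher than in IFE cells in both CD34+ (2.92 ± 0.31) and Gli1+ cells (2.59 ± 0.35). Itga6, which encodes the α6 integrin that all groups were sorted on, was detected on all 8 arrays. Its Gli1+ and CD34+ arrays all lay below the IFE arrays, at -0.75 ± 0.31 and -0.50 ± 0.27 (limma adjusted p = 0.237 and 0.401).

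The set's name was checked against its sebocyte genes. Of 12 genes listed as sebocyte markers, Scd1, Mgst1, Plin2 and Far2 passed the detection filter. Scd3, Elovl3, Awat2, Cidea, Mc5r and Pparg had probes that did not pass it, and Awat1 and Soat1 had no probe. The wax synthase Awat2, the droplet protein Cidea and the desaturase Scd3 were detected on no array. Pparg, the nuclear receptor that drives sebocyte and fat cell differentiation, was detected by 1 of its 3 probes on 1 array, Gli1+ replicate 2, at a log2 level of 5.58. On the other Gli1+ array that probe read 4.79, on the CD34+ arrays 4.56, 4.94 and 4.87, and on the IFE arrays 4.57, 4.87 and 4.78, all below the detection limit. Of the listed sebocyte markers, Awat2, Cidea, Scd3, Elovl3 and Mc5r were thus not measured above background on any array, and Pparg on 1 array. Scd1 was detected on 8 arrays and Mgst1 and Plin2 on 7 each. The values that follow describe lipid synthesis genes in cells sorted for α6 integrin. The labelled basal state was met by Krt5 and Krt14, detected on all arrays, but suprabasal keratins and envelope genes were detected on all arrays too, with Krt10 at 11.41 to 13.03 and Lor at 10.45 to 12.49 on the log2 scale.

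Fasn, the fatty acid synthase itself, was also below detection on all 8 arrays. Its single probe read 4.37 and 4.98 on the Gli1+ arrays, 4.61, 5.01 and 4.60 on the CD34+ arrays and 4.54, 4.66 and 4.79 on the IFE arrays, while the lowest level that counted as detected was 5.08 to 5.62, depending on the array. The remaining genes with probes that did not pass the filter were Fads2, Mvd and Sc5d. In all, the 12 probes of these 10 genes gave 1 detection in 96 probe and array pairs, and a level under the limit is a bound, not an absence. Acat2, Fdft1 and Cers3 had no probe, like Awat1 and Soat1. Among the 30 tested genes, 20 were detected on all 8 arrays, 6 on 7 arrays, and Scd2, Far2, Dgat1 and Sptlc2 on 2 to 5 arrays. Far2 and Sptlc2 were detected in IFE cells only, on 2 of 3 arrays each, so that they entered the test through that group.

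**Figure D1:**
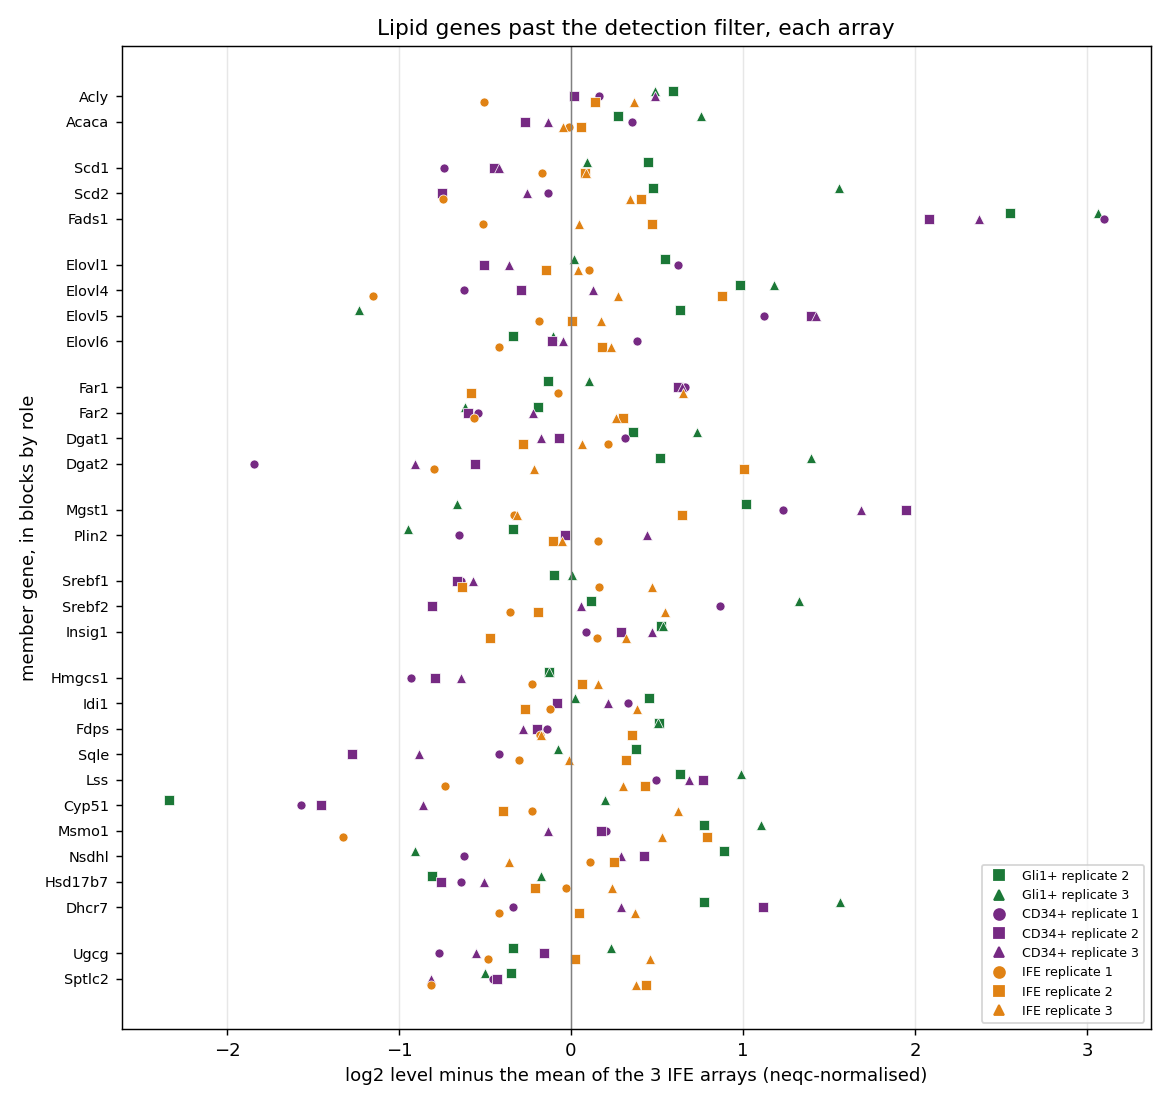
Log2 level of each of the 30 tested lipid genes on each of the 8 arrays, minus the mean of the 3 IFE arrays, with genes in blocks by role from fatty acid synthesis at the top to sphingolipid synthesis at the bottom. Colour gives the group and shape the replicate. Fads1 stands out to the right, with all Gli1+ and CD34+ arrays over 2 log2 units above the IFE mean.

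Fads1, the delta-5 desaturase that makes arachidonic and eicosapentaenoic acid, was the one gene of the set that differed past the threshold, a limma p adjusted over all 9545 genes of under 0.05, and it did so in 2 of the 3 comparisons. Measured by 1 probe, its log2 level was 7.98 and 8.49 on the Gli1+ arrays, 8.53, 7.51 and 7.80 on the CD34+ arrays and 4.92, 5.90 and 5.48 on the IFE arrays. All Gli1+ and CD34+ arrays lay above all 3 IFE arrays, and Fads1 was not detected on IFE replicate 1. It was 5.72-fold higher in CD34+ than in IFE cells, a log2 difference of 2.52 ± 0.37 (SE, limma adjusted p = 0.00434). In Gli1+ cells it was 7.01-fold higher than in IFE cells, a log2 difference of 2.81 ± 0.41 (SE, limma adjusted p = 0.0121). Gli1+ and CD34+ cells overlapped, and their difference of 0.29 had a 95% interval from -0.63 to 1.21. The CD34+ difference stayed past the threshold under all 20 alternative settings. The Gli1+ difference missed it under 5 of 20: with the replicate block (2.83, limma adjusted p = 0.0536), with array weights (2.82, limma adjusted p = 0.0826), with only the 2 groups compared (2.81, limma adjusted p = 0.0579), without IFE replicate 1 (2.57, limma adjusted p = 0.0547) and without IFE replicate 3 (2.84, limma adjusted p = 0.0608).

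In sorted populations measured in bulk, fewer cells of a type and less RNA per cell cannot be told apart. The part of the cell types below in the Fads1 differences was not tested. Fibroblast markers differed between the same groups: the summed linear signal of the 2 markers that passed the filter, Fbln1 and Col1a2, was 1160 to 1540 in Gli1+, 1850 to 1920 in CD34+ and 121 to 255 in IFE cells. Most of this signal was Fbln1, which read 10.48 and 10.19 on the Gli1+ arrays. Col1a2 read 7.23 on Gli1+ replicate 2 and 4.65, at background, on Gli1+ replicate 3. The other 6 fibroblast markers, Col1a1, Col3a1, Dcn, Lum, Pdgfra and Vim, were detected on at most 1 array each. Melanocyte markers showed sums of 148 to 323 in Gli1+, 268 to 373 in CD34+ and 50.7 to 79.0 in IFE cells over 3 of 6 genes with a probe. Mitf carried these differences, since Mlana and Pmel differed by -0.07 and -0.20 in CD34+ against IFE cells, and the defining pigment genes Dct, Tyrp1 and Tyr were detected on no array. Of 9 fat cell markers with a probe, Cd36 and Lpl passed the filter, with sums of 14.9 to 56.6 in Gli1+, 22.1 to 66.5 in CD34+ and 84.7 to 165 in IFE cells, and Adipoq, Plin1, Retn, Car3 and Cebpa were detected on no array.

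The Scd desaturases introduce the first double bond into saturated chains. Scd1, the main form in skin and sebaceous gland, read 9.77 and 9.41 on the Gli1+ arrays, 8.58, 8.87 and 8.90 on the CD34+ arrays and 9.15, 9.40 and 9.41 on the IFE arrays. Its 3 CD34+ arrays lay below every other array. The differences missed the threshold: -0.53 ± 0.26 for CD34+ against IFE (limma adjusted p = 0.346) and 0.80 ± 0.29 for Gli1+ against CD34+ (limma adjusted p = 0.199). Scd2, a related desaturase known mainly from brain and newborn skin, read 5.80 and 6.89 on the Gli1+ arrays and between 4.58 and 5.74 on the other 6. It was detected on both Gli1+ arrays, 1 CD34+ array and 2 IFE arrays, the Gli1+ arrays lay above all others, and Gli1+ against CD34+ gave 1.40 ± 0.46 (limma adjusted p = 0.158).

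At the head of the fatty acid pathway, Acly, which cleaves citrate to acetyl-CoA, read 10.03 and 9.93 in Gli1+ cells, 9.46 to 9.93 in CD34+ cells and 8.93 to 9.80 in IFE cells. Acaca, the carboxylase that commits acetyl-CoA to fatty acids, read 9.17 and 9.66 in Gli1+ cells, 8.63 to 9.26 in CD34+ cells and 8.86 to 8.96 in IFE cells. Both Gli1+ arrays lay above the IFE arrays for Acly and for Acaca, by 0.54 ± 0.34 and 0.51 ± 0.32, with limma adjusted p = 0.458 and 0.446. Neither differed past the threshold in any comparison.

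Elongases add carbon pairs to fatty acids. Elovl5, which extends polyunsaturated chains and so neighbours Fads1 in one pathway, read 8.59 and 6.73 on the Gli1+ arrays, 9.08, 9.35 and 9.38 on the CD34+ arrays and 7.77, 7.97 and 8.13 on the IFE arrays. The CD34+ arrays were the highest, and the Gli1+ arrays fell on both sides of the IFE arrays. CD34+ exceeded IFE cells by 1.31 ± 0.43 (limma adjusted p = 0.132) and Gli1+ cells by 1.61 ± 0.48 (limma adjusted p = 0.122). Elovl4, which makes the ultra long chains of barrier ceramides, read 10.34 and 10.54 in Gli1+ cells, 8.73, 9.07 and 9.49 in CD34+ cells and 8.21, 10.23 and 9.63 in IFE cells. Its Gli1+ arrays lay above all others, by 1.34 ± 0.53 over CD34+ (limma adjusted p = 0.230), and the IFE arrays spread over 2 log2 units. For Elovl6 and the brightest Elovl1 probe all 3 groups overlapped, with differences between -0.30 and 0.36. A dimmer Elovl1 probe had Gli1+ above both other groups, as described further on.

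**Figure D2:**
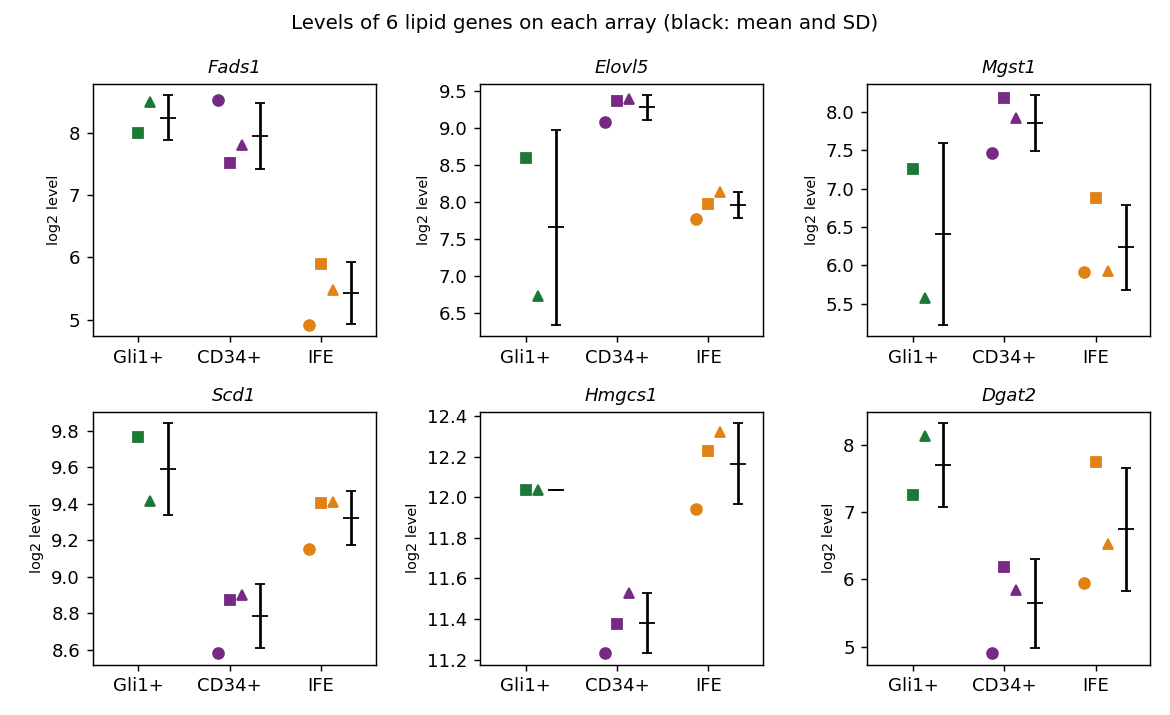
Log2 level of Fads1, Elovl5, Mgst1, Scd1, Hmgcs1 and Dgat2 on each array (points, shape by replicate) with the group mean and SD in black. Vertical axes differ between panels. Fads1 separates IFE from the other groups, CD34+ arrays are highest for Elovl5 and Mgst1 and lowest for Scd1 and Hmgcs1, and the Gli1+ arrays are far apart for Elovl5 and Mgst1.

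Among genes of wax and triglyceride synthesis, Dgat2, which adds the last fatty acid to a triglyceride, showed the widest difference. It read 7.26 and 8.14 on the Gli1+ arrays, 4.90, 6.19 and 5.84 on the CD34+ arrays and 5.95, 7.75 and 6.53 on the IFE arrays. Gli1+ lay wholly above CD34+ and overlapped IFE. Dgat2 was not detected on CD34+ replicate 1, and that reading enters the fold that follows. Gli1+ cells exceeded CD34+ cells 4.16-fold, a log2 difference of 2.06 ± 0.57 (limma adjusted p = 0.102, 95% interval 0.79 to 3.33). Dgat1, an enzyme of the same reaction, was detected on 1 Gli1+ and 1 CD34+ array, with levels of 4.63 to 5.65 over all arrays. Far2, a reductase for longer chains, read 4.55 to 5.46 and overlapped between groups. Far1, a reductase that makes fatty alcohols for ether lipids and waxes, read 7.82 and 8.06 in Gli1+, 8.61, 8.58 and 8.60 in CD34+ and 7.88, 7.37 and 8.60 in IFE cells. Both Gli1+ arrays lay below the CD34+ arrays, by 0.66 ± 0.37 (limma adjusted p = 0.399).

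Mgst1, a membrane glutathione transferase used as a marker of sebaceous cells, read 7.25 and 5.57 on the Gli1+ arrays, 7.47, 8.18 and 7.92 on the CD34+ arrays and 5.91, 6.88 and 5.92 on the IFE arrays. The CD34+ arrays were above all others, and the Gli1+ arrays differed by over 1 log2 unit, with replicate 3 not detected. CD34+ exceeded IFE cells by 1.62 ± 0.46, with a limma adjusted p of 0.0841, which became 0.0445 with the replicate block. Plin2, which coats lipid droplets, read 5.70 and 5.10 in Gli1+, 5.39, 6.01 and 6.48 in CD34+ and 6.20, 5.94 and 5.99 in IFE cells. Both Gli1+ arrays lay below the IFE arrays, by 0.64 ± 0.38 (limma adjusted p = 0.422). Plin2 was not detected on Gli1+ replicate 3.

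Of the regulators, Srebf1, which favours fatty acid genes, read 8.22 and 8.32 in Gli1+, 7.68, 7.65 and 7.74 in CD34+ and 8.48, 7.68 and 8.79 in IFE cells. Srebf2, which favours cholesterol genes, read 6.30 and 7.51 in Gli1+, 7.05, 5.38 and 6.24 in CD34+ and 5.83, 5.99 and 6.73 in IFE cells. Insig1, a retention protein and itself an SREBP target, read 9.64 and 9.65 in Gli1+, 9.20, 9.41 and 9.59 in CD34+ and 9.27, 8.65 and 9.44 in IFE cells. By these brightest probes Gli1+ lay above CD34+ for Srebf1 and above both other groups for Insig1, and Srebf2 overlapped throughout. The second Srebf1 probe read 5.05 and 4.63 in Gli1+, not detected on either array, and 6.31, 5.16 and 4.96 in CD34+ cells, lower in Gli1+ by 0.64. Both other Insig1 probes past the filter overlapped between all groups. The differences of the brightest probes ran from -0.62 to 0.72. None passed the threshold in any comparison, with limma adjusted p between 0.370 and 0.979. For Gli1+ against IFE, the second Srebf1 probe gave -1.03 and another Insig1 probe 1.00 (limma p adjusted over probes 0.401 and 0.315).

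Of the 10 cholesterol synthesis genes tested, 0 passed the threshold in any comparison by limma, with 4, 1 and 3 of them at an unadjusted p under 0.05 for CD34+ against IFE, Gli1+ against IFE and Gli1+ against CD34+. Over all genes 16.9%, 17.6% and 17.5% met that p. Hmgcs1, the synthase that makes HMG-CoA, read 12.04 on both Gli1+ arrays, 11.23, 11.37 and 11.53 on the CD34+ arrays and 11.94, 12.23 and 12.32 on the IFE arrays. The CD34+ arrays were the lowest, by 0.79 ± 0.26 against IFE (limma adjusted p = 0.132) and by 0.66 ± 0.29 against Gli1+ cells (limma adjusted p = 0.273). Sqle, the squalene epoxidase, read 8.76 and 8.31 in Gli1+, 7.97, 7.11 and 7.51 in CD34+ and 8.08, 8.71 and 8.38 in IFE cells. These values are of its brighter probe, by which CD34+ was lowest. The difference of this probe was -0.86 ± 0.32 for CD34+ against IFE (limma adjusted p = 0.193) and 1.01 ± 0.36 for Gli1+ against CD34+ (limma adjusted p = 0.191). A dimmer Sqle probe had IFE lowest, as described further on.

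Cyp51, which demethylates lanosterol, read 5.21 and 7.75 on the Gli1+ arrays, 5.98, 6.09 and 6.69 on the CD34+ arrays and 7.32, 7.15 and 8.17 on the IFE arrays. CD34+ lay below IFE by 1.29 ± 0.58 (limma adjusted p = 0.296). The Gli1+ arrays were 2.54 log2 units apart and bracketed the CD34+ arrays. Cyp51 was not detected on Gli1+ replicate 2, so that this gap and order rest on a reading under the detection limit. The lower Cyp51 call without Gli1+ replicate 3, given further on, rests on the same reading. Hsd17b7, a later sterol reductase, read 10.28 and 10.92 in Gli1+, 10.45, 10.34 and 10.59 in CD34+ and 11.07, 10.88 and 11.33 in IFE cells. CD34+ again lay below IFE, by 0.63 ± 0.28 (limma adjusted p = 0.294). Lss, which closes the sterol rings, went the other way, with 7.86, 8.13 and 8.06 in CD34+ against 6.63, 7.80 and 7.67 in IFE cells, a difference of 0.65 ± 0.35 (limma adjusted p = 0.390).

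Fdps, which makes farnesyl diphosphate, read 8.07 on both Gli1+ arrays, 7.42, 7.37 and 7.28 in CD34+ and 7.38, 7.92 and 7.39 in IFE cells. The Gli1+ arrays were the highest, by 0.71 ± 0.30 over CD34+ (limma adjusted p = 0.252). Dhcr7, the last enzyme before cholesterol, read 6.34 and 7.14 in Gli1+, 5.23, 6.69 and 5.86 in CD34+ and 5.15, 5.62 and 5.94 in IFE cells, with Gli1+ above IFE by 1.17 ± 0.46 (limma adjusted p = 0.223). Msmo1, a sterol methyl oxidase, read 7.94 and 8.27 in Gli1+, 7.37, 7.34 and 7.03 in CD34+ and 5.84, 7.96 and 7.69 in IFE cells. Gli1+ lay above CD34+ for Msmo1, by 0.86 ± 0.55 (limma adjusted p = 0.462), and for Idi1 and Nsdhl no pair of groups was apart. In sphingolipid synthesis, Ugcg, the glucosylceramide synthase, read 8.47 to 9.69 and all groups overlapped, while Sptlc2, a subunit of the first enzyme, stayed at or near background at 4.63 to 5.88.

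Counted over the set, CD34+ against IFE cells gave 1 of 30 genes past the threshold (3.33%), against 4.8% of all genes. At an unadjusted p under 0.05 there were 7 (23.3%, against 16.9% of all genes). The CD34+ and IFE arrays did not overlap for 4 genes that were higher in CD34+ cells (Fads1, Elovl5, Mgst1 and Lss, 13.3% against 13.9% of all genes) and for 5 that were lower (Scd1, Hmgcs1, Sqle, Cyp51 and Hsd17b7, 16.7% against 13.7%). A stricter count, chosen after seeing the data, took a gene only where every probe past the filter was apart the same way and the brighter group was detected on all its arrays. It gave 4 genes higher (13.3% against 10.2% of all genes) and 4 lower (13.3% against 9.98%), without Sqle. The median log2 difference was -0.05 over the set and -0.01 over all genes. Without Gli1+ replicate 2, and likewise without Gli1+ replicate 3, 4 genes passed the threshold, with Elovl5 and Mgst1 higher and Cyp51 lower beside Fads1.

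For Gli1+ against IFE cells, 1 of 30 genes passed the threshold (3.33%), against 2.16% of all genes, and 2 had an unadjusted p under 0.05 (6.67%, against 17.6% of all genes). Both Gli1+ arrays lay above the 3 IFE arrays for 11 genes, 36.7% against 13.5% of all genes: Acly, Acaca, Scd1, Scd2, Fads1, Elovl4, Dgat1, Insig1, Fdps, Lss and Dhcr7. They lay below for Plin2 alone, 3.33% against 18% of all genes. Dgat1 was detected on 1 of these Gli1+ arrays and on no IFE array, so that its values give no order. By the stricter count, 9 genes were higher (30.0% against 8.83% of all genes), without Dgat1 and Insig1, and Plin2 was lower (3.33% against 12%). The median difference was 0.26 over the set and -0.05 over all genes. Leaving out IFE replicate 1 or 3 left 0 genes past the threshold, and leaving out Gli1+ replicate 2 or 3 gave 2, with Elovl5 or Cyp51 lower beside Fads1.

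For Gli1+ against CD34+ cells, 0 of 30 genes passed the threshold in limma, against 1.42% of all genes, and 9 had an unadjusted p under 0.05 (30.0%, against 17.5% of all genes). Both Gli1+ arrays lay above the 3 CD34+ arrays for 12 genes, 40.0% against 13.5% of all genes: Acly, Scd1, Scd2, Elovl4, Dgat1, Dgat2, Srebf1, Insig1, Hmgcs1, Fdps, Sqle and Msmo1. They lay below for Elovl5, Far1 and Mgst1, 10% against 17.9%. By the stricter count, 9 genes were higher (30.0% against 9.42% of all genes), without Dgat1, Srebf1 and Insig1, and Elovl5 and Far1 were lower (6.67% against 12.6%). The median difference was 0.34 over the set and -0.05 over all genes. The comparisons share groups, so that their counts are not independent of each other. Without Gli1+ replicate 2, 4 genes passed the threshold, Scd2 and Dgat2 higher and Elovl5 and Mgst1 lower, with the single remaining Gli1+ array assumed to vary like the other groups. Summed suprabasal keratinocyte markers were 13500 and 19700 in Gli1+, 7000 to 10000 in CD34+ and 7940 to 13500 in IFE cells, with all 6 genes past the filter. Gli1+ lay above CD34+ for Krt1, Krt10, Lor and Krtdap and overlapped it for Ivl and Sbsn. Against IFE, Gli1+ lay wholly above for Krt10 alone, and the mean of Ivl was lower, at -0.50. Summed Langerhans cell and macrophage markers were 970 and 1430 in Gli1+, 505 to 631 in CD34+ and 309 to 535 in IFE cells, with 6 of 7 past the filter and Itgam detected on 1 array. The Gli1+ arrays were the highest for H2-Ab1, the brightest of these genes, and for Cd74 and H2-Aa. For H2-Eb1 and Cd207 they overlapped IFE, with Cd207 at 6.64 and 6.97 in Gli1+ and 6.77, 6.62 and 5.64 in IFE cells. Ptprc overlapped between all groups and was detected on 2 arrays. Summed T cell markers were 713 and 1270, 975 to 1370 and 1250 to 1630 in the same order, and summed basal keratinocyte markers 17800 and 19700, 21600 to 25000 and 19500 to 21700, with every gene of both lists that had a probe past the filter. Most of the T cell sum was Thy1, while Cd3e read 6.90 and 7.39 in Gli1+, 5.60, 5.01 and 5.04 in CD34+ and 6.68, 5.31 and 5.57 in IFE cells. The Gli1+ arrays were the highest for Cd3e, by 1.93 over CD34+ (limma adjusted p = 0.063) and 1.29 over IFE cells (limma adjusted p = 0.154). The other T cell markers went the other way. Cd3g, Cd3d and Thy1 gave -1.07, -0.33 and -0.70 for Gli1+ against IFE and -0.23, -0.10 and -0.39 for Gli1+ against CD34+ cells. Cd3g and Cd3d were detected on no Gli1+ array, and Cd3g on all 3 IFE arrays. The part of these cells in the lipid gene differences was not tested.

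**Figure D3:**
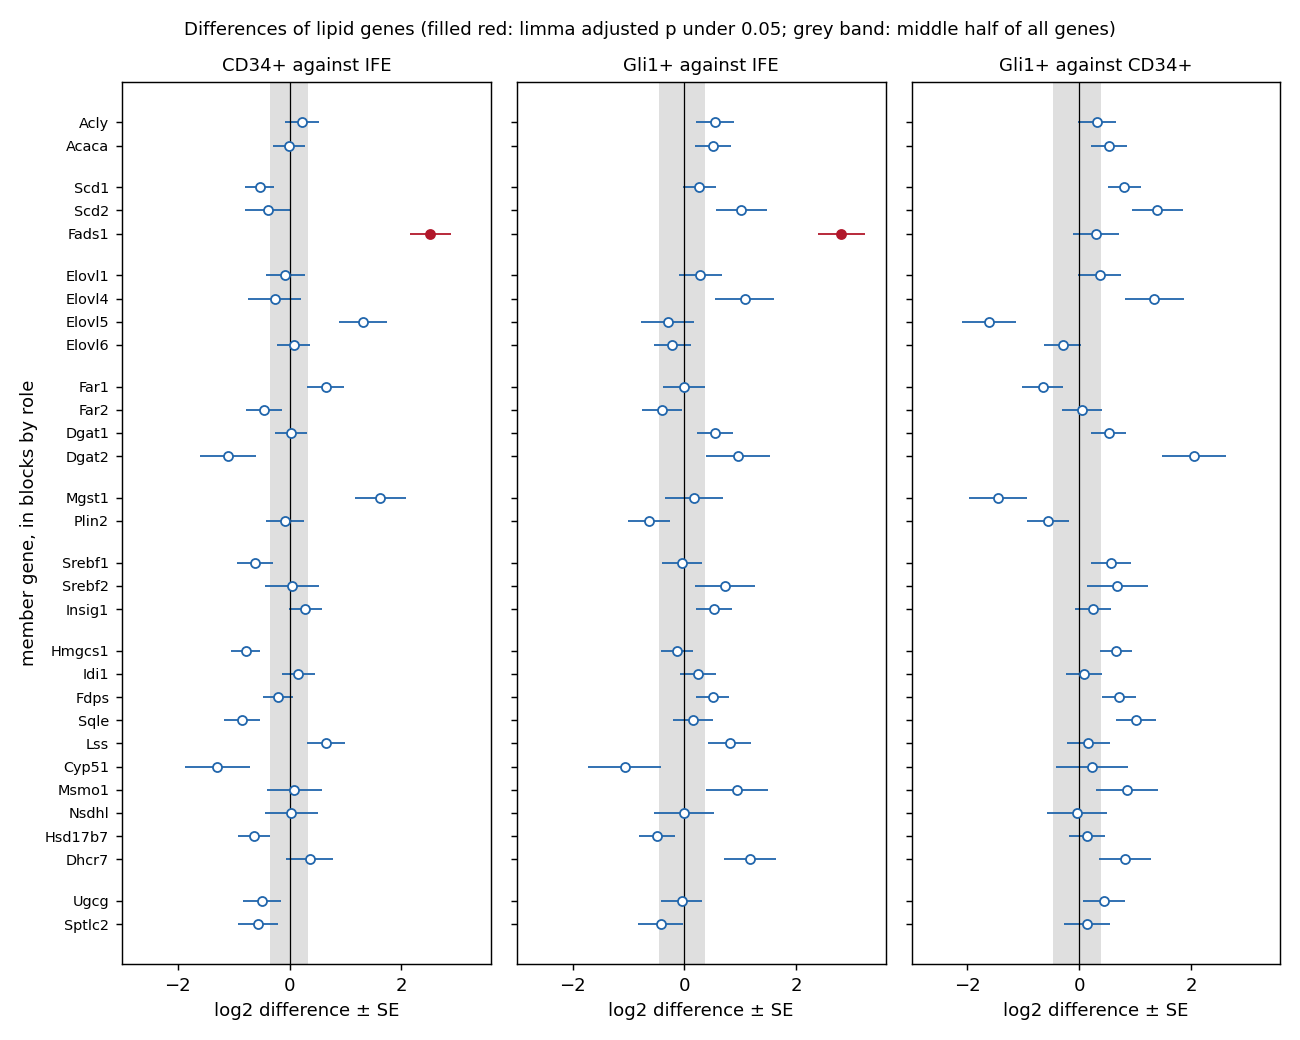
Log2 difference and SE of the 30 tested lipid genes in each comparison, with genes in blocks by role. The grey band spans the lower to upper quartile of all 9545 genes, and filled red points mark Fads1, the gene past a limma adjusted p of 0.05. Most points for Gli1+ against CD34+ lie right of 0 (24 of 30).

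Of the tested genes, 7 had several probes past the filter, and for some of them the probes went different ways. The brighter Sqle probe, used above, was lower in CD34+ than in IFE cells, while the dimmer one was higher by 1.15 ± 0.34 (limma p adjusted over probes 0.105). That dimmer probe read 6.40 and 7.41 in Gli1+, 5.97, 6.34 and 5.82 in CD34+ and 5.08, 5.04 and 4.55 in IFE cells, where it was detected on no array. Its Gli1+ against IFE difference of 2.02 ± 0.38 passed the threshold over probes (limma p adjusted over probes 0.0334), and the brighter probe gave 0.15 ± 0.36. With the mean of both probes, Sqle turned from lower to higher in CD34+ against IFE cells, at 0.15 (limma adjusted p = 0.83). The order of CD34+ and IFE cells given for Sqle thus holds for its brighter probe and not for the gene, while both probes were higher in Gli1+ than in CD34+ cells.

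The probes of Mgst1 ran together. The dimmer one read 7.99 and 4.92 in Gli1+, 7.24, 8.04 and 7.39 in CD34+ and 5.28, 5.90 and 5.00 in IFE cells, and CD34+ exceeded IFE by 2.16 ± 0.65 (limma p adjusted over probes 0.111). Its Gli1+ arrays were over 3 log2 units apart, with replicate 2 at the level of CD34+ cells and replicate 3 at that of IFE cells. Nsdhl, a sterol dehydrogenase, showed the same order, with all 4 probes lower on Gli1+ replicate 3 than on replicate 2, by 8.34 to 6.54 for the probe used. The 4 probes of Elovl1 did not share an order of the Gli1+ arrays. A dimmer Elovl1 probe read 7.66 and 7.64 in Gli1+, 6.69, 7.36 and 5.77 in CD34+ and 6.51, 7.18 and 5.53 in IFE cells. Its Gli1+ arrays lay above all others, by 1.04 ± 0.54 over CD34+ and 1.24 ± 0.54 over IFE cells. The limma p adjusted over probes was 0.367 and 0.282. By each of the other Elovl1 probes all groups overlapped. Both Far1 probes were higher in CD34+ than in IFE cells, by 0.64 ± 0.33 and 0.71 ± 0.27.

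**Figure D4:**
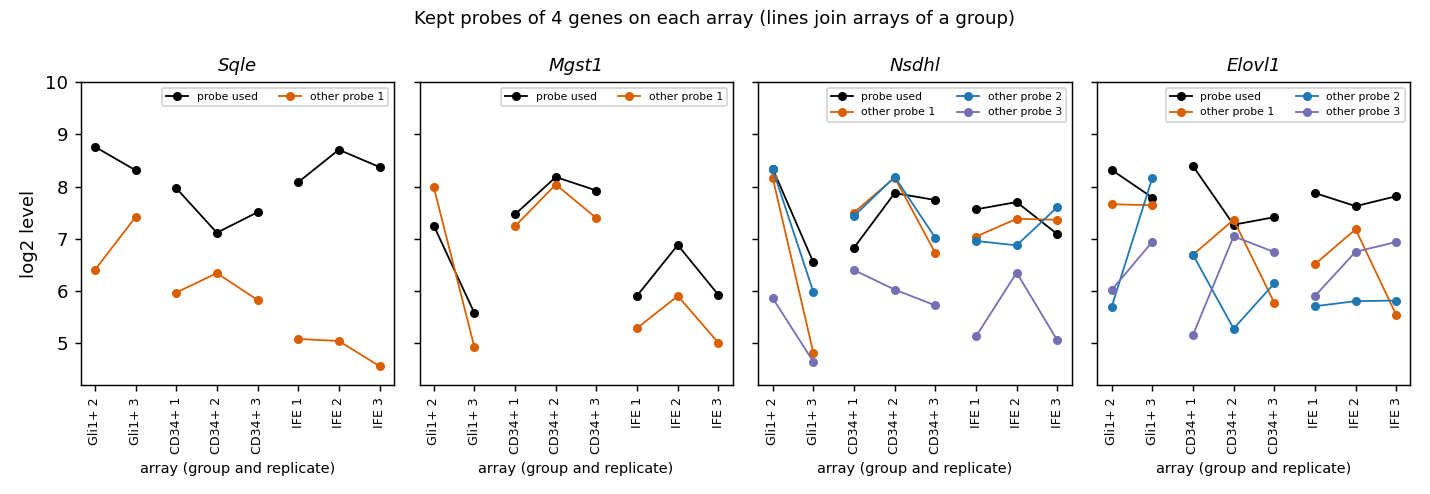
Log2 level of every probe past the filter for Sqle, Mgst1, Nsdhl and Elovl1 on each array, with lines joining arrays of a group and black for the probe used. The Sqle probes disagree on the order of CD34+ and IFE, the Mgst1 probes agree on it, and all 4 Nsdhl probes are lower on Gli1+ replicate 3 than on replicate 2.

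Within groups, the set was not more variable between the Gli1+ arrays than other genes. The median gap between the 2 arrays was 0.44 over the set and 0.63 over all genes, and it was over 1 for 6 of 30 genes (20.0%) against 31.7% of all genes. IFE arrays differed more, with a median range of 0.83 over the set and 0.60 over all genes. IFE replicate 1 was the lowest of the 3 for 19 of 30 lipid genes (63.3%) and for 33.3% of all genes, and it was the highest for 3. Elovl4, Msmo1 and Lss were each over 1 log2 unit lower on that array than on the other IFE arrays. Summed suprabasal markers were also lowest there, at 7940 against 11500 and 13500, and their part in this was not tested. CD34+ replicate 3 was the lowest of its group for 4 lipid genes (13.3%) against 32.0% of all genes.

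Neighbouring pathways were counted beside all genes. Of all genes, 4.8%, 2.16% and 1.42% passed the threshold for CD34+ against IFE, Gli1+ against IFE and Gli1+ against CD34+. Among other cholesterol synthesis and uptake genes, 0 of the 9 that passed the filter (17 listed) differed past the threshold in limma in any comparison. The count was also 0 of 12 for other fatty acid synthesis genes and 0 of 10 for fatty acid oxidation genes. At an unadjusted p under 0.05, the 3 lists gave 1, 2 and 2 genes for CD34+ against IFE. They gave 0, 1 and 0 for Gli1+ against IFE, and 0, 1 and 2 for Gli1+ against CD34+. Over all genes 16.9%, 17.6% and 17.5% met that p in these comparisons. The list of 18 other triglyceride and droplet genes gave 1, 3 and 3 in the same order. For Gli1+ against IFE these were Fabp5, higher, and Hilpda and Abhd5, lower. For Gli1+ against CD34+ they were Agpat3 and Fabp5, higher, and Hilpda, lower. Hilpda, detected on no Gli1+ array, was at least 1.87-fold lower there than in IFE and 1.78-fold lower than in CD34+ cells. The list's median differences were -0.05, -0.51 and -0.49, against -0.01, -0.05 and -0.05 over all genes. Of 18 other triglyceride and droplet genes, Agpat3, which builds phosphatidic acid, was lower in CD34+ than in IFE cells by 1.13 ± 0.26 (limma adjusted p = 0.036) and higher in Gli1+ than in CD34+ cells by 1.41 ± 0.29 (limma adjusted p = 0.0456). Fabp5, the epidermal fatty acid binding protein, read 7.01 and 8.16 in Gli1+ cells and was detected on no CD34+ array. It was at least 5.57-fold higher in Gli1+ than in CD34+ cells (limma adjusted p = 0.0439). Under the replicate block these calls were lost, at a limma adjusted p of 0.0779 and 0.111 for the Agpat3 differences and 0.0991 for Fabp5. Leaving out any one CD34+ or IFE array also ended both Agpat3 calls, at a limma adjusted p of 0.0779 to 0.14, as did leaving out Gli1+ replicate 3 for Gli1+ against CD34+ cells (limma adjusted p = 0.081). The CD34+ against IFE call for Agpat3 was also lost with no background correction (-0.50, limma adjusted p = 0.0898), median centring (0.108), cyclic loess (0.0503) and the deposited values (-0.39, limma adjusted p = 0.282). Its Gli1+ against CD34+ call was lost in 7 of the 12 settings that left no array out, at a limma adjusted p of 0.0526 to 0.278. For Fabp5 the call ended without Gli1+ replicate 3, any CD34+ replicate or IFE replicate 2 or 3, at a limma adjusted p of 0.0751 to 0.118, and with no detection filter, the mean of probes, array weights or only the 2 groups compared, at 0.0538 to 0.237.

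Of 19 other ceramide genes, 2 passed the threshold in CD34+ against IFE cells, against 4.8% of all genes. They were Cers2, a ceramide synthase for very long chains, and Degs1, the desaturase that completes ceramide, both higher in CD34+ cells. No gene of this list passed it in the other comparisons. At an unadjusted p under 0.05, the list gave 7, 3 and 8 genes for CD34+ against IFE, Gli1+ against IFE and Gli1+ against CD34+. Over all genes 16.9%, 17.6% and 17.5% met that p. The 7 genes for CD34+ against IFE went both ways. Cers2, Degs1 and Cers5 were higher in CD34+ cells, while Cers6 (-0.99), Abca12 (-1.13), Sgms1 (-0.69) and Pnpla1 (-0.78) were lower. The median log2 difference of the list in this comparison was -0.43, against -0.01 over all genes. Cers2 read 6.89, 8.20 and 7.51 in CD34+ and 6.13, 5.03 and 5.37 in IFE cells, a difference of 2.02 ± 0.42 (limma adjusted p = 0.0243). Degs1 read 10.59, 10.93 and 10.61 in CD34+ and 9.64, 9.18 and 9.54 in IFE cells, a difference of 1.26 ± 0.27 (limma adjusted p = 0.0307). The groups did not overlap for either gene, and with the replicate block the limma adjusted p was 0.0608 for Cers2 and 0.0715 for Degs1. The Cers2 call also ended with no detection filter (limma adjusted p = 0.0602) and without replicate 2 or 3 of either group (limma adjusted p of 0.0784 to 0.11), and the Degs1 call without any one array of either group (limma adjusted p of 0.0775 to 0.122).

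The last list held 12 genes of the sebaceous duct and of sebaceous progenitors. Prdm1, encoding the repressor Blimp1 reported in sebaceous gland cells, read 8.32 and 9.20 in Gli1+, 5.93, 6.43 and 6.53 in CD34+ and 5.66, 5.78 and 6.05 in IFE cells. Both Gli1+ arrays lay above all others, 7.62-fold over IFE (limma adjusted p = 0.00751) and 5.52-fold over CD34+ cells (limma adjusted p = 0.0225). Gata6, a transcription factor of the duct, was lower in CD34+ than in IFE cells by 2.02 (limma adjusted p = 0.0155), and so was Krt79, a duct and infundibulum keratin, by 1.25 (limma adjusted p = 0.0388). Under the block the limma adjusted p was 0.0711 for Prdm1 in Gli1+ against CD34+ cells and 0.0581 for Krt79. The Gata6 call ended without CD34+ replicate 2 or IFE replicate 1 or 3 (limma adjusted p of 0.0649 to 0.0781), and the Krt79 call without any one CD34+ or IFE array (limma adjusted p of 0.0762 to 0.154). Krt79 also missed the threshold with median centring (limma adjusted p = 0.1), cyclic loess (0.0591) and the deposited values (-0.58, limma adjusted p = 0.131). Prdm1 in Gli1+ against IFE cells kept its call without any single array but lost it with array weights (limma adjusted p = 0.062) and with only the 2 groups compared (limma adjusted p = 0.0579). In Gli1+ against CD34+ cells it lost it without any one CD34+ array or IFE replicate 2 or 3 (limma adjusted p of 0.0539 to 0.0874), with array weights (0.165) and with only the 2 groups compared (0.125). Of the 10 genes of this list that passed the filter, the others missed the threshold in every comparison. At an unadjusted p under 0.05, the list gave 3, 2 and 6 genes for CD34+ against IFE, Gli1+ against IFE and Gli1+ against CD34+. Over all genes 16.9%, 17.6% and 17.5% met that p.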

How the data were processed

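Each of the 8 samples was measured on 1 Illumina MouseRef-8 bead array after Trizol extraction and NuGEN Ovation Pico labelling, and the arrays were read with GenomeStudio 2010.3, per the submitters' processing notes. Per the file headers, the deposited matrix gives a bead-averaged intensity and a detection p-value for each probe and array; the intensities had no background correction or normalization. The deposited log2 values equal the log2 of these intensities within 5.5e-05.

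Background correction and quantile normalization used neqc of limma 3.58.1 under R 4.3.3, with an offset of 16 and negative controls inferred from the deposited detection p-values. A probe was kept if 2 or more arrays detected it at p under 0.05 (14252 probes, of which 13361 had a gene), and each of 9545 genes was represented by its brightest probe. Of 25697 probes, 23978 had 1 platform symbol and 1719 had none, and 23962 matched the RefSeq gene table through Entrez identifiers. A fold against a group whose probe was detected on no array is given as "at least", from the lowest detected level of each array or the gene's own level where higher. Marker sums add linear levels after removing the offset.

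All 8 arrays were fitted with 1 mean per group by lmFit and eBayes, leaving 5 residual degrees of freedom and adding 4.84 from the prior. Tests were two-sided, with Benjamini-Hochberg adjustment over all genes within a comparison, and errors of differences are SE. Same-numbered samples come from the same pool of mice per the design text, which pairs them, and the correlations of their deviations from group means were -0.031 to 0.091. The fit with the pool as a replicate block was an alternative, and its value stands beside a result where it changed the call.

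Members, lists and tests were chosen with earlier results of these data known. Every member could be named, with values on each array for those past the threshold and for Scd1, Fasn, Pparg, Srebf1, Srebf2, Insig1, Hmgcs1 and Mgst1. Values on each array for further members were given after seeing them. From each other list up to 3 genes past the threshold were named per comparison. Genes of these lists short of the threshold were named after seeing the values, to give their direction. The fit was tested on simulated data. The expression files name no genome build, so gene positions are given for promoter windows only.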

Additional observations from a re-analysis of the deposited data

How the results depend on the processing

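Fads1 in CD34+ against IFE cells passed the threshold under all 20 alternatives, with differences of 1.33 to 2.77 and limma adjusted p of 0.000875 to 0.0277. The number of lipid genes past the threshold in this comparison was 1, and it was 2 with normexp and an offset of 50 (Hmgcs1 added), 4 with no background correction (Elovl5, Mgst1 and Hmgcs1 added), 2 with the replicate block (Mgst1 added), 3 with array weights (Elovl5 and Mgst1 added), 4 with only the 2 groups compared (Elovl5, Mgst1 and Cyp51 added), and 1 to 4 on leaving out each array, with 4 without either Gli1+ array. In Gli1+ against IFE cells the number was 0 with the replicate block, with array weights and with only the 2 groups compared, and 0 to 2 on leaving out each array: 0 without IFE replicate 1 or 3, and 2 without Gli1+ replicate 2 (Elovl5 lower) or 3 (Cyp51 lower). In Gli1+ against CD34+ cells it was 0 except without Gli1+ replicate 2, where it was 4, for a range of 0 to 4.

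The median difference of the lipid genes in CD34+ against IFE cells turned to 0.129 with median centring and 0.0923 with the deposited log2 values, where the median of all genes moved from -0.0144 to 0.125 and 0.0901; leaving out each array gave -0.161 to -0.0309. In Gli1+ against IFE cells it was 0.476 with median centring and 0.376 with the deposited values, where all genes moved from -0.0542 to 0.0965 and 0.0896, and 0.511 with the mean of probes; leaving out each array gave 0.152 to 0.451. In Gli1+ against CD34+ cells it was 0.238 to 0.589 on leaving out each array. Sqle in CD34+ against IFE cells turned to 0.148 with the mean of probes. The causes of these shifts were not tested.

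Over all genes, 458, 206 and 136 passed the threshold in the 3 comparisons (CD34+ against IFE, Gli1+ against IFE, Gli1+ against CD34+), 346, 67 and 1 with the replicate block, 887, 3 and 1 with array weights, and 842, 1225 and 1211 without Gli1+ replicate 2. The split of higher and lower calls moved with the scaling, from 281 and 177 to 308 and 91 with median centring for CD34+ against IFE, from 124 and 82 to 157 and 12 with the deposited values for Gli1+ against IFE, and from 55 and 81 to 106 and 82 with cyclic loess for Gli1+ against CD34+. Genes with levels near 5 lie at the detection limit, where differences are compressed.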
